A study of Mus musculus with 3 samples.

Results

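The fibroblast growth factor (FGF) pathway was examined in the developing ureter, the muscular duct between kidney and bladder. Members were 40 genes chosen by symbol: the FGF ligand genes, the FGF receptor genes, the klotho co-receptor genes, the FGF binding protein gene Fgfbp1, the docking adaptor gene Frs3 and the feedback genes of the Sprouty, Spred, Dusp6 and Etv families. They were measured by 89 probe sets, of 34958 probe sets naming exactly 1 gene and 18194 genes in all, and Frs2, which the rule also names, was not analysed here. The samples were embryonic mouse ureters, wild-type, of strain FVB/N and unknown sex, taken at embryonic day 15 (Theiler stage 23), cut out from the pelvis of the kidney down to where the ureter enters the bladder. They formed 1 group of 3, labelled replicates 3, 8 and 9, and their RNA, amplified in 2 rounds, was hybridised in 1 colour to Mouse Genome 430 2.0 arrays from Affymetrix, 1 per sample. Per the labels no sample was a pool, but whether each is a different embryo or litter is not stated, and the SDs given may therefore hold technical as well as biological spread.

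FGFs are secreted proteins that bind receptor tyrosine kinases on neighbouring cells with the help of heparan sulfate, a sugar chain of the cell surface. Bound receptors recruit docking adaptors and switch on the RAS to ERK cascade, which in turn raises transcripts of the ETS factors Etv4 and Etv5 and of inhibitors such as the Sprouty proteins and Dusp6 that damp the signal. In the embryonic urinary tract, FGF signals pass between epithelium and mesenchyme, where they are known for their roles in branching of the ureteric bud and survival of kidney progenitors.

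All values are signals, the linear intensity of a probe set on an array, and values of 3 samples are given in the order replicates 3, 8 and 9. Where a gene had several probe sets, the brightest was used. Background was the 95th percentile of 52 measured marker genes of organs that were not dissected (retina, testis, lens and others), and lay at a signal of 325, 409 and 440.4. A gene was called above background when its signal passed this level on each of the 3 arrays. Brightness depends on the probe set as well as on the transcript, so levels of different genes were not compared. With 1 group there was no contrast to test, and every result is a description of these 3 arrays.

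By their brightest probe sets, receptors and feedback inhibitors gave signal in these ureters, and most ligands did not. Members had from 1 probe set (Fgf10 and Dusp6 among them) to 8 (Spred1), and more probe sets give a gene more chances to pass. All 5 receptor genes, 6 of 7 feedback inhibitor genes and 1 of 2 ETS factor genes were above background. Of the ligand genes, 2 of 15 paracrine and 0 of 3 endocrine ones were. With a gene's probe sets averaged, 2 receptor genes, 3 feedback inhibitor genes, 1 ETS factor gene and 1 paracrine ligand gene were above background. The share of all genes was then 43.5%. Over the whole set 17 of 40 members (42.5%) were above background, against 55.0% of 18142 named genes outside the reference list. A further 20 members were below background on every array, against 34.7% of all genes, and 3 were above it on 2 arrays. Of the members nearest to the limit, Spry2 passed it with a margin of 0.18 (log2) in replicate 8, and Frs3 missed it there with a margin of -0.11.

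**Figure D1:**
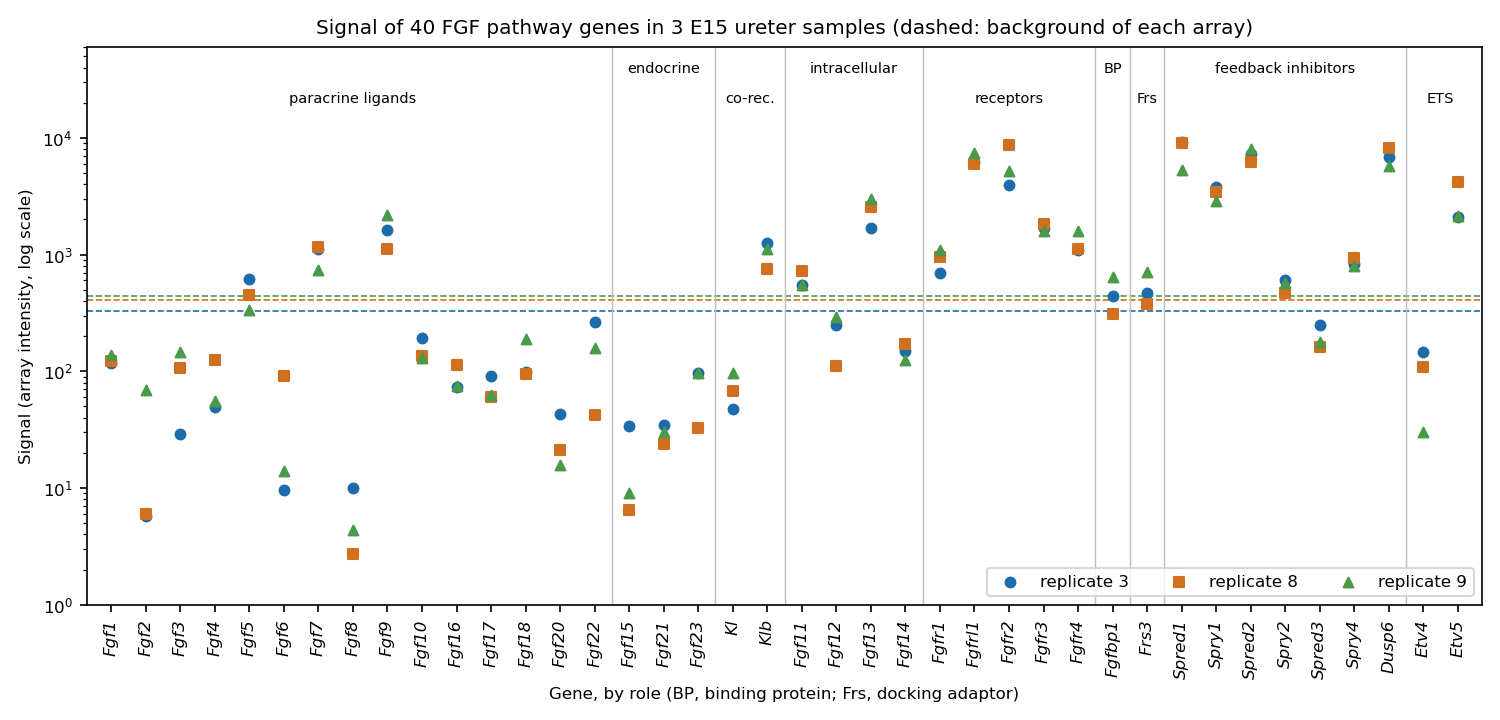
Signal of the 40 members in each of the 3 samples (symbols) on a log axis, grouped by role, with the background level of each array as a dashed line in that sample's colour. All 5 receptors lie above the lines, whereas 12 of 15 paracrine ligands lie below them on every array.

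The 2 paracrine ligand genes above background were Fgf9 and Fgf7. Fgf9, known in other organs as an epithelial ligand that acts on mesenchyme, had signals of 1614, 1111 and 2174 (mean 1633 ± 532, SD, n = 3). Replicate 9 was the highest and replicate 8 the lowest, a range of 1.03 on the log2 scale after array centring, the removal of each array's median deviation, and 0.97 without it. Its other probe set was below background on every array and had another order (287, 167 and 184). Fgf7, or keratinocyte growth factor, a mesenchymal ligand of epithelial receptors, had signals of 1114, 1159.8 and 744 (1006 ± 228), with replicate 9 the lowest and the other two close together. Its other probe set was again below background (100.1, 103 and 110.3).

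Fgf5, known for ending hair growth, was above background on 2 arrays, at 621 and 446, and below it in replicate 9 at 337. Fgf10, the mesenchymal ligand needed for lung and limb budding and also active in ureteric branching, was below background on every array, at 193, 136 and 131. Its 1 probe set missed the limit by between 0.75 and 1.75 log2 units. The call concerns that probe set and no other.

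The other paracrine ligand genes were below background on every array. They included Fgf8 (9.96, 2.73 and 4.32) and Fgf20 (42.9, 21.0 and 15.6), ligands known from nephron formation in the kidney. Fgf1 and Fgf2, ligands without a classical secretion signal, stood at 126 ± 9.90 (mean ± SD, n = 3) and at 5.79, 5.96 and 68.9. Fgf18, a ligand of cartilage and bone, had signals of 98.9, 95.3 and 189. The embryonic ligand genes Fgf3 (28.8, 106 and 146) and Fgf4 (49.5, 126 and 56.1) and the muscle ligand gene Fgf6 (9.59, 91.4 and 13.9) were also dim. The remaining ones were Fgf16 at 87.2 ± 22.9, Fgf17 at 71.0 ± 17.5 and Fgf22 at 266, 42.0 and 159. Of these, Fgf22 came closest to background, with a margin of -0.29 (log2) in replicate 3. Several of the dim genes spread widely between samples, but values at this level lie within background.

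Endocrine FGFs circulate in the blood and need a klotho protein beside the receptor. None of their 3 genes was above background on any array: Fgf15, made in the gut, had signals of 34.0, 6.46 and 9.08, the liver hormone gene Fgf21 had 29.6 ± 5.27 and Fgf23, a bone hormone of phosphate balance, had 97.1, 32.5 and 96.5. The co-receptor gene Kl was below background as well, at 47.7, 67.9 and 96.8. Klb, the co-receptor for Fgf15 and Fgf21, was above background at 1252, 751 and 1107 (1037 ± 258). Replicate 8 was the lowest and replicate 3 the highest. The other Klb probe set was below background on every array and lowest in replicate 9 (96.5, 61.3 and 13.0).

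Klb is a known transcript of hepatocytes, and liver markers were present in these samples. All 6 measured hepatocyte markers (of 8 listed) were above background and highest in replicate 3, with a summed signal of 195759, 109244 and 156380 and none at 0. The order of that sum over the samples was that of the brighter Klb probe set. The sum of 6 erythroid markers (162820, 77828 and 119324) had this order too. The part of liver or blood RNA in the Klb signal was not tested. In bulk tissue, fewer cells of a type and less RNA per cell cannot be told apart.

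The intracellular FGF homologous factors resemble FGFs but stay inside the cell, where they bind voltage-gated sodium channels. Of their 4 genes Fgf13 and Fgf11 were above background. Fgf13 had signals of 1696, 2556 and 3012 (2421 ± 669), lowest in replicate 3. Fgf11 had 544, 722 and 551 (605 ± 101), with a smallest margin over background of 0.32 (log2). Each had a second probe set below background on every array. Fgf12 (249, 109.8 and 294) and Fgf14 (148 ± 23.7) were below background on every array with all of their probe sets, 3 and 4 in number.

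Neuron and glia markers were present beside Fgf13. Of 5 measured markers 3 were above background on all arrays, 0 were below it on every array, and none was at 0. Their summed signal was 7493, 11513 and 13857. Of the 5 markers only Stmn2 (1425, 5676 and 6761) had the order of Fgf13 over the samples, and without it, a choice made after its values were seen, the sum was 6067, 5836 and 7097. The part of neuronal RNA in the Fgf13 signal was not tested.

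Fgfr2 encodes the receptor whose epithelial splice form binds Fgf7 and Fgf10. Its signals were 3944, 8666 and 5217 (5942 ± 2443). Replicate 8 was the highest, and the range of 1.11 on the log2 scale, or 2.16-fold, was the widest of the members above background. The signal comes from a probe set ending in _s_at, a kind whose probes can match related transcripts. The other 2 Fgfr2 probe sets were below background on every array (156, 306 and 289 for the brighter one, 43.5, 121 and 53.2 for the dimmer one). All 3 probe sets were highest in replicate 8 and lowest in replicate 3. With _x_at and _s_at probe sets left out, Fgfr2 was not above background.

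Fgfr1 encodes a receptor of mesenchymal cells. Its signals of 697, 953 and 1094 (915 ± 201) were lowest in replicate 3. A second Fgfr1 probe set was also above background, with the same order of samples (602, 849 and 894), and the last one (4.38, 63.4 and 204) was below it with that order too.

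Fgfr3 encodes a receptor of cartilage and of urothelium. By its brighter probe set it varied least of the members above background, with signals of 1698, 1819 and 1589 (1702 ± 115) and a range of 0.13 (log2). The other Fgfr3 probe set was below background on every array and had another order (13.9, 56.2 and 187). Fgfr4, a receptor of liver and of embryonic skeletal muscle, had signals of 1099, 1107 and 1587 (1265 ± 279), highest in replicate 9. Of its 5 probe sets, 1 was above background on every array and 3 were below it on each. The hepatocyte sum was highest in replicate 3, and that of 8 skeletal muscle markers, 6 of them above background and Myf5 below on each array, was 73353, 62976 and 60873. Of the 8 muscle markers, 5 were highest in replicate 3 and 2 in replicate 8. Only 1, Myh3 (21309, 19505 and 25956), was highest in replicate 9 like Fgfr4. No skeletal muscle marker was at 0. The part of liver or muscle RNA in the Fgfr4 signal was not tested.

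Fgfrl1 encodes a receptor-like protein that binds FGFs without a kinase domain. It had signals of 6236, 5954 and 7411 (6534 ± 772), with the 3 samples within 0.38 log2 units. Its second probe set was above background as well, at 1422, 1299.7 and 1688, in the same order. The probe sets used for Fgfrl1, Fgfr1 and Spred1 end in _s_at, like that of Fgfr2. With _x_at and _s_at probe sets left out, these genes stayed above background, but the mean log2(signal + 1) of Fgfrl1 was 10.51 instead of 12.67. Fgfbp1, a secreted protein that releases FGFs from the matrix, was above background in replicates 3 and 9 and below it in replicate 8 (440.0, 308 and 647). Frs3, a docking adaptor that links receptors to the RAS pathway, showed the same pattern at 472, 379 and 702.

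**Figure D2:**
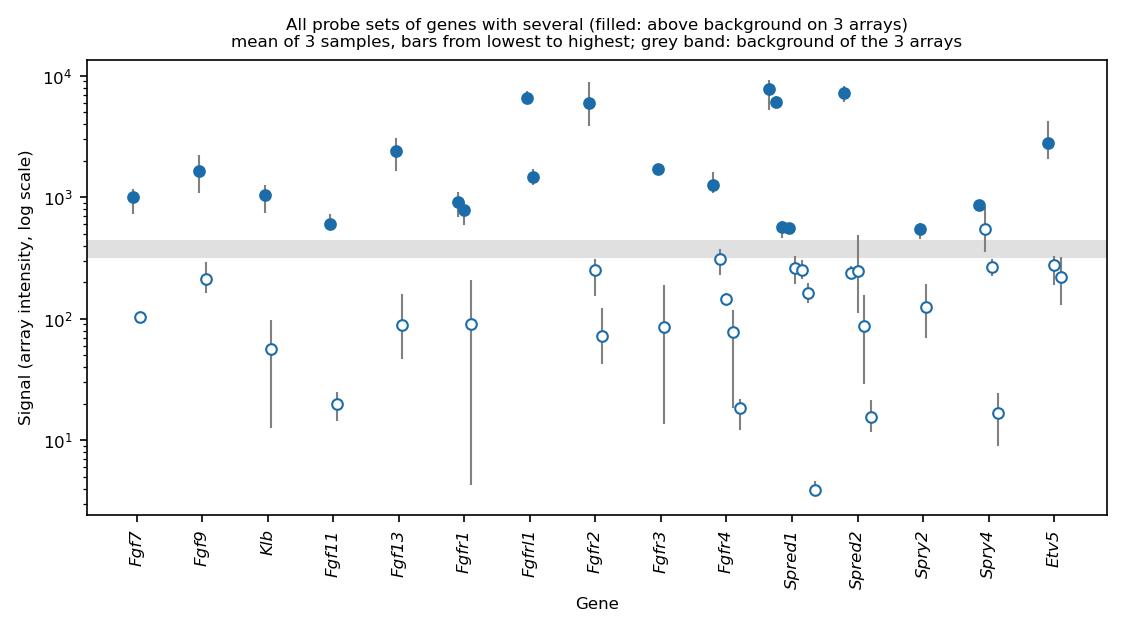
Signal of every probe set (mean of 3 samples as a circle, bar from the lowest to the highest sample, log axis) for the 15 members above background that have several. Filled circles were above background on all 3 arrays, and the grey band spans the background levels; 12 of the 15 genes have a single filled circle.

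Of 15 members above background with several probe sets, 12 had 1 probe set above background, against 47.4% of such genes over the array. The exceptions were Fgfr1, Fgfrl1 and Spred1. When a gene's probe sets were averaged, 7 members stayed above background and 10 did not: Fgf7, Fgf11, Fgf13, Klb, Fgfr1, Fgfr3, Fgfr4, Spred2, Spry2 and Spry4. The share of all genes above background was then 43.5%.

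Among the feedback inhibitors, Dusp6, a phosphatase that removes the activating phosphates of ERK, had signals of 6813, 8259 and 5756 (6942 ± 1256). Spry1, a Sprouty inhibitor known to restrain Ret signalling in the ureteric bud, had 3779.6, 3418 and 2902 (3367 ± 441). Both were well over background on each array, by at least 3.71 and 2.72 log2 units.

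The Sprouty gene Spry4 had signals of 834, 939 and 802 (859 ± 71.8), within 0.16 log2 units after array centring. A second Spry4 probe set was above background on 2 arrays and had another order (819, 360.0 and 456). Spry2 lay close to the limit at 607, 465 and 569.8 (547 ± 73.9), and at the 99th percentile of the reference list it was no longer above background, nor was Fgf11.

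Spred proteins block the step from RAS to RAF. Spred2 had signals of 7256, 6187 and 8052 (7165 ± 936) from 1 of its 5 probe sets. Spred1 had 9149.7, 8977 and 5294 (7807 ± 2178), lowest in replicate 9. Of the 8 Spred1 probe sets 4 were above background, and replicate 9 was the lowest in 3 of these and the highest in the last (549.5, 531 and 606). Spred3 was below background on every array, at 196 ± 45.5.

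The ETS factor genes differed in their calls. Etv5 had signals of 2117, 4165 and 2139 (2807 ± 1176), with replicate 8 the highest and the others alike. Its other 2 probe sets were below background on every array and highest in replicate 9 (194, 314 and 321 for the brighter one). Etv4 was below background with both probe sets, the brighter one at 145, 109 and 30.4.

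Replicate 8, where Fgfr2 and Etv5 were highest, also had the highest signal of several marker lists, epithelial markers among them. All 10 urothelium and epithelium markers were above background, none was at 0, and 6 were highest in replicate 8. Their summed signal was 49548, 65639 and 45124. The adhesion gene Epcam ran from 2586 and 2414 in replicates 3 and 9 to 8308 in replicate 8. Other epithelial markers went another way: Krt19 and Upk1b were highest in replicate 3, and Trp63 and Upk3b in replicate 9. The urothelium marker Upk3b was lowest in replicate 8 (2200.1, 1126 and 2437), and Upk1b fell from replicate 3 to replicate 9 (2544, 1816 and 938). Ureteric tip and duct markers had a sum of 4021, 6428 and 3820, with 4 of 6 above background, Wnt9b and Aqp2 below it on every array and none at 0. Of these 6, 3 were highest in replicate 8, and without Calb1 (1375, 3126 and 542), left out after its values were seen, the sum was 2646, 3302 and 3277.

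Markers outside the epithelium were highest in replicate 8 as well. They were 4 of 7 ureteric mesenchyme markers, among them the transcription factor gene Tbx18 (7828, 20079 and 7442), 4 of 8 smooth muscle markers and 3 of 5 cartilage markers. The mesenchyme sum was highest in replicate 9 (158131, 157841 and 175794), and the smooth muscle sum (60737, 63910 and 53001) and the cartilage sum (6260, 9145 and 5618) in replicate 8. The part of cell content in the Fgfr2 and Etv5 differences was not tested.

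**Figure D3:**
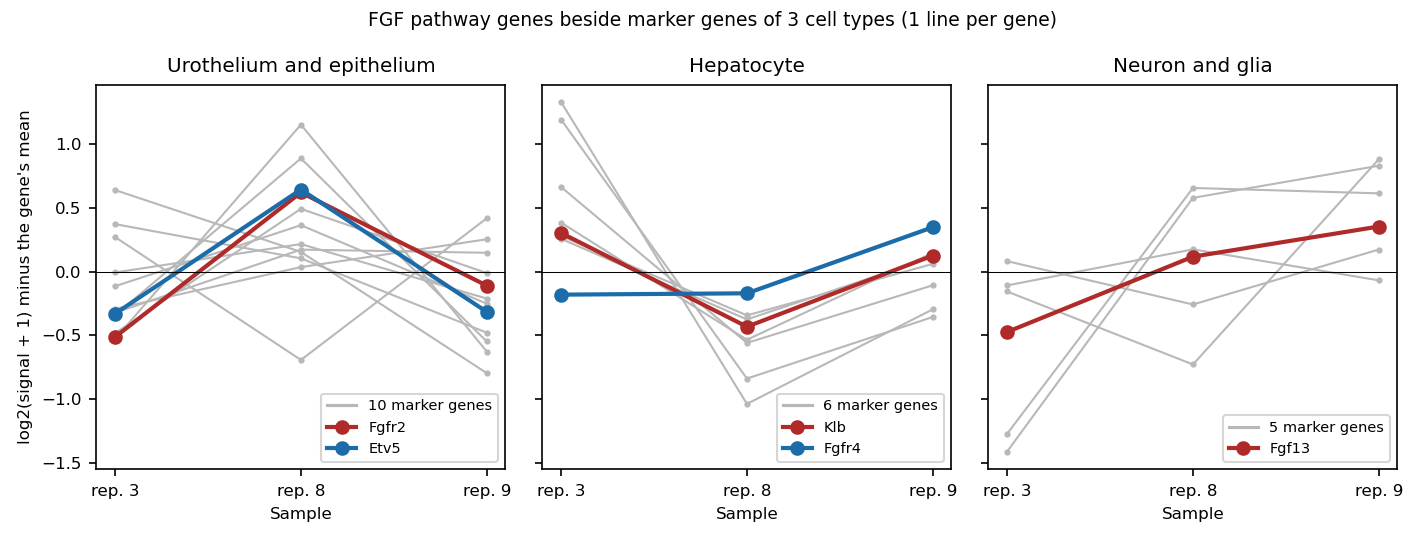
Deviation of log2(signal + 1) from each gene's mean in the 3 samples, whose order has no meaning, for Fgfr2 and Etv5 beside 10 epithelial markers, Klb and Fgfr4 beside 6 hepatocyte markers, and Fgf13 beside 5 neuron and glia markers (grey, 1 line per gene). Fgfr2 and Etv5 peak in replicate 8 with 6 of the 10 epithelial markers, and Klb is highest in replicate 3 with all 6 hepatocyte markers. Fgfr4 is highest in replicate 9, unlike all 6 hepatocyte markers. Only Stmn2 of the 5 neuron and glia markers has the order of Fgf13.

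The sequences before the start sites of 4 members are shown because these genes carry the receptor and feedback results: Fgfr2 and Etv5, which peaked in the same sample, Fgfrl1 and Dusp6. Each is the 250 bases before the outermost annotated start, read 5′ to 3′ on the gene's strand from RefSeq, build GRCm38.p6. Capitals mark matches on either strand to CCGGAAG, an ETS factor motif, to AGGAAG, a shorter ETS-type motif, or to GGGCGG, the GC box bound by Sp1-type factors.
Fgfr2, chr7:130266809-130267058, minus strand: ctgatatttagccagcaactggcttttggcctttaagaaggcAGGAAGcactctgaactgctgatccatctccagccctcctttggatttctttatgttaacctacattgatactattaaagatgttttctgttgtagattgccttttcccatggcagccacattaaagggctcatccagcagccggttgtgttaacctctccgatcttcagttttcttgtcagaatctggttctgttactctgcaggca
Etv5, chr16:22439571-22439820, minus strand: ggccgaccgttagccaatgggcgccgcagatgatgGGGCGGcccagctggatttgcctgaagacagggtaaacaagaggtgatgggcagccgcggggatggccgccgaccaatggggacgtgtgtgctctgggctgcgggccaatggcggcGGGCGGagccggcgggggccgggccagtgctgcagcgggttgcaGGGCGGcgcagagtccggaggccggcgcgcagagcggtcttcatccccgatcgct
Fgfrl1, chr5:108693979-108694228, plus strand: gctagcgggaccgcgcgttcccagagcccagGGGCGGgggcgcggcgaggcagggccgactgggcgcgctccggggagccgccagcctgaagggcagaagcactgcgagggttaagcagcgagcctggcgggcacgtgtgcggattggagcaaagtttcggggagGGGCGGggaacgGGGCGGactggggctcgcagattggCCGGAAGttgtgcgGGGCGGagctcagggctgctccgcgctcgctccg
Dusp6, chr10:99262981-99263230, plus strand: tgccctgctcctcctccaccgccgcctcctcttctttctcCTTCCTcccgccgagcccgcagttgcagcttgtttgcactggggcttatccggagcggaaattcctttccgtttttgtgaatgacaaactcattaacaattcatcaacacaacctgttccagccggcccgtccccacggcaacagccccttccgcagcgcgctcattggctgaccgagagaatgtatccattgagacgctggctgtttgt

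Fgfr2 and Dusp6 each held 1 match to AGGAAG, at bases 43 to 48 and, on the opposite strand, 41 to 46 of the window. Etv5 held 3 GC boxes, while the window of its other annotated start held 0 matches, and Fgfrl1 held 4 GC boxes and a match to CCGGAAG at bases 203 to 209. Fgfrl1 was the 1 member of 31 with a window that held CCGGAAG, against 7.83% of 27025 genes (6.91% of their 32851 windows). AGGAAG was found for 8 of the 31 members and 32.3% of genes (29.5% of windows), and the GC box for 21 members and 35.4% of genes (32.7% of windows). The Fgfr2 window was 44.0% G and C and the Fgfrl1 window 73.6%, against a median of 62.4% for member windows and 52.4% for all. A match describes letters in this window, and the data hold no measure of binding.

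Fgfr2 and Fgf9 had the widest ranges over the samples among members above background, and Fgfr3 and Spry4 the narrowest. Range was taken on log2(signal + 1) after array centring, and without centring Etv5 (0.98) came before Fgf9 (0.97). The range reached 1 for 2 of 17 members above background, Fgf9 and Fgfr2, against 14.3% of 9978 genes above background. Without replicate 8 the count was 0, beside 8.10% of all genes. It was 1 without replicate 3 (Fgf9, beside 6.32%), without replicate 9 (Fgfr2, beside 6.51%) and without array centring (Fgfr2, beside 14.6%). The median range was 0.57 among the members and 0.53 among all genes above background. Replicate 3 held the highest value of 4 members, replicate 8 that of 7 and replicate 9 that of 6, beside 32.2%, 32.4% and 35.4% of all genes above background.

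**Figure D4:**
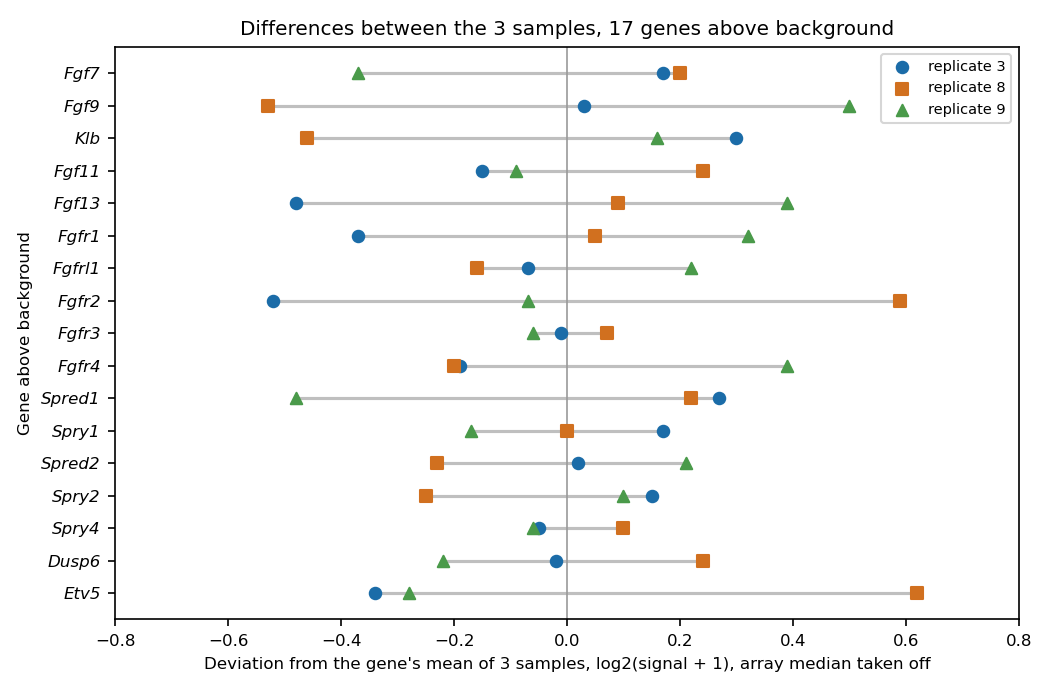
Deviation of the 17 members above background from their own mean in each of the 3 samples (symbols), on the log2(signal + 1) scale with the array median taken off; grey lines join the lowest and the highest sample. Fgfr2 and Etv5 reach furthest to the right in replicate 8 (0.59 and 0.62), and Fgfr3 and Spry4 vary least.

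**Figure D5:**
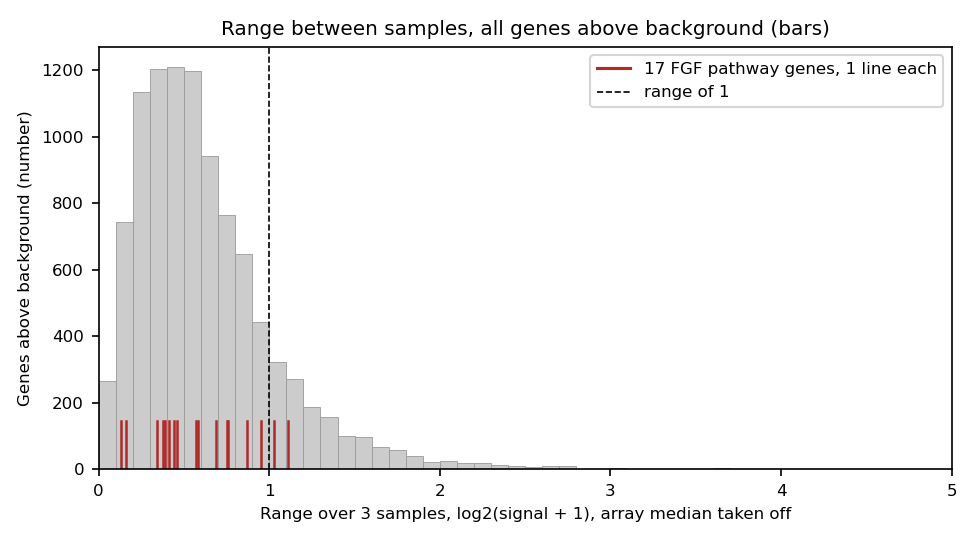
Number of genes above background (bars, all 9978) by their range over the 3 samples on the log2(signal + 1) scale, with the 17 members as red lines and a dashed line at a range of 1. The members lie between 0.13 and 1.11, and 2 of them are past the dashed line.

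Other genes of the pathway, listed apart from the members, were mostly above background by their brightest probe sets. They were 44 of 50 measured genes, beside the 55.0% of all genes, and 2 were below background on every array. With a gene's probe sets averaged, 34 were above background, beside 43.5% of all genes. All 9 adaptor genes were above background, among them Ptpn11, the phosphatase SHP2 (19186 ± 1230), the docking protein gene Gab1 (13941 ± 1017), the RAS activator gene Sos1 (7445 ± 2213) and the phospholipase gene Plcg1 (6137 ± 1506). In the RAS to ERK cascade 5 of 6 measured genes were above background, among them the kinase gene Map2k1 (11414 ± 1949), Nras (8978 ± 1431), Braf (2739 ± 235) and Araf (2410.1 ± 664), while the scaffold gene Ksr1 was above it on 2 arrays. The list named 11 genes, and the other members of it were not analysed here. All 5 PI3K branch genes were above background, among them Pik3ca (10478 ± 2984), Pik3r1 (4528 ± 435), Akt1 (4299 ± 664) and Pdpk1 (2329 ± 366).

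Further feedback and target genes were above background for 6 of 9. Ccnd1, the cyclin D1 gene, had a mean signal of 21853 ± 762, the RAS GTPase-activating gene Rasa1 3524 ± 722, Myc 3343 ± 386 and Il17rd, the membrane inhibitor known as Sef, 1885 ± 657. Dusp5, Spry3 and Nf1 were above background on 2 arrays each. Heparan sulfate enzymes, proteoglycans and FGF cofactors were above background for 19 of 21. The sulfatase genes Sulf2 and Sulf1, which trim the sulfates that FGFs bind, had means of 21586 ± 8897 and 14419 ± 6853, the FGF receptor partner gene Flrt2 11384 ± 1923 and the sulfotransferase gene Hs2st1 9176 ± 228. Flrt1 (227 ± 107) and the binding protein gene Fgfbp3 (182 ± 19.7) were below background on every array.

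The arrays were comparable in scale, with a median signal from 198 to 273 and Pearson's r across genes above background, which are not independent replicates, from 0.933 to 0.947. The ratio of 3′ to 5′ control probe sets of Gapdh, which measures how far labelled RNA was concentrated at 3′ ends, was 18.9, 15.1 and 16.4. The same ratio for Actb was highest in replicate 3, at 7.45, and lowest in replicate 9, a 1.86-fold difference. Ureter markers were present, with 7 of 7 mesenchyme and 6 of 8 smooth muscle markers above background, and so were those of erythroid cells (6 of 6), macrophages (5 of 5), endothelium (5 of 6), renal stroma (4 of 5) and nephron progenitors (4 of 6). Adrenal and gonad markers (0 of 5) and cartilage markers (1 of 5) were mostly not above background on all arrays. Below background on every array were 0 of the 5 adrenal and gonad markers and 2 of the 5 cartilage markers. The adrenal and gonad sum was 3779, 3304 and 1159, so their signal was not absent and was lowest in replicate 9.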

How the data were processed

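Ureter RNA of 3 embryonic samples was hybridised to 1-colour arrays. The authors deposited linear intensities, 1 per probe set and array, and GCOS is named in the submitters' processing notes. Its version and background handling: not given in the sources used here. The deposited intensities had a common trimmed mean (1500.0) and were not quantile normalized. Names came from the annotation of the platform: 34958 of 45101 had 1 symbol, 932 several and 9211 none. All 40 members matched the GRCm38.p6 reference table by Entrez ID. Values were log2(signal + 1), and a gene took its probe set with the highest mean. Background was the 95th percentile of 52 measured genes (58 listed) of absent tissues on each array. Of these, 2 (Cela1 and Grm4) passed it. The members, lists and rule for named genes (every member, and per pathway list up to 4 genes above background, taken by highest mean only to limit their number, with those below background) were chosen with earlier results of these data known. Ksr1, Dusp5, Spry3, Nf1 and the genes of the closing section were named after their values were seen. Calls and ranges were tested on simulated data. Python 3.11.15, numpy 2.4.6 and pandas 2.3.3 were used. The number of arrays limits precision. Alternatives are given in the closing section.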

Additional observations from a re-analysis of the deposited data

How the results depend on the processing

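The count of 17 members above background was 15 to 20 in every alternative but averaging over the probe sets of a gene, which gave 7. The 17 members remained above background under quantile normalization and without exocrine pancreas genes in the reference list (19). They also remained without each replicate in turn (17 to 19), at the 90th percentile (20) and with 2 arrays required (20). These last settings loosen the rule, so they could hardly lose a member and say little about how firm the calls are. Fgfr2 was lost when _x_at and _s_at probe sets were left out (16), and Spry2 and Fgf11 at the 99th percentile (15). Fgf5, Fgfbp1 and Frs3 changed call between these settings. The count with a range of at least 1 was 2, and it was 1 with averaged probe sets, 1 with _x_at and _s_at probe sets left out, 1 at a pseudocount of 64 and 1 without centring, 0 to 1 without each replicate (0 without replicate 8), and 16 of 40 with no filter on low values, where 34.7% of all genes passed. The cause was not tested, except that a range over fewer samples is narrower by construction. Counts of members below background on every array and of pathway genes stayed within 1.5 times in every alternative run. Mean levels moved by at least 1 SD for 23 of 40 members with averaged probe sets and for 2 without _x_at and _s_at probe sets. They did so for 3 and 16 members at pseudocounts of 16 and 64, and for 0 otherwise. A larger pseudocount can only raise a mean level, and averaging or leaving out probe sets cannot raise that of the brightest. The direction of these moves was therefore fixed in advance. With 1 of 3 samples left out, the mean of a probe set cannot move by 1 SD, so the 0 was fixed in advance there. No paired analysis was possible because there is 1 group. Signal over background limits the 20 members below background on every array, which have only a bound.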

Other observations

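In the list of heparan sulfate enzymes, proteoglycans and FGF cofactors, 9 of 19 genes above background had a range of at least 1 (log2), beside 14.3% of all genes above background. The count was 2 of 6 in the list of other feedback and target genes and 0 of 9, 0 of 5 and 0 of 5 in the adaptor, RAS to ERK and PI3K lists. By their brightest probe sets the other genes of the list ranged less, among them the enzyme genes Hs2st1 (0.02), Ext2 (0.70), Glce (0.78) and Ndst2 (0.86). The small range of Hs2st1 holds for its brightest probe set only. Other Hs2st1 probe sets above background differed more (1502, 875 and 1272 for one, 1306, 1572 and 850.1 for another). Further probe sets above background also differed more than the brightest for Flrt2 (773, 2472 and 4815) and Gpc6 (1189, 1224 and 2987). Of the 9 genes, 6 were highest in replicate 9 and 3 in replicate 8. The ratio of 3′ to 5′ signal was lowest in replicate 9 for Actb but in replicate 8 for Gapdh. The part of RNA quality in these differences was not tested.

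The sulfatase gene Sulf1 had signals of 10592, 10335 and 22331, and a second Sulf1 probe set showed the same pattern (9505, 8889.8 and 20949). Sulf2 had 16991, 15926 and 31840.1 from a probe set ending in _x_at. Its other probe sets above background were also highest in replicate 9 but differed less and had another order of the remaining samples (1369.9, 2055 and 2263 for one, 690.1, 792 and 938 for the other). The sulfotransferase genes Hs6st1 (798, 481 and 1006) and Hs6st2 (1674, 1434 and 3925), the chain polymerase gene Ext1 (553, 595 and 1354) and the glypican gene Gpc1 (1828, 3055 and 4816) were also highest there.

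The genes highest in replicate 8 were the syndecan genes Sdc2 and Sdc4 and Flrt3. Sdc2 had 2564, 6497 and 2966, and its second probe set above background was highest there too (963, 1981 and 1665). Sdc4 had 3049, 3652 and 1595, whereas its second probe set above background was lowest in replicate 8 (677, 616 and 1074). Flrt3 had 1067, 3207 and 1978, and its second probe set, above background on 2 arrays, was highest in replicate 9 (305, 851 and 1186). These genes were singled out after their values were seen, and the list was not tested against others.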
